A study of Mus musculus with 3 samples.

Results

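Ion exchangers and cotransporters of 9 solute carrier (SLC) families were described in microvascular fragments from the brains of wild-type adult C57BL/6J mice. The families move bicarbonate (Slc4), calcium against sodium (Slc8 and Slc24), protons against sodium (Slc9), chloride with sodium or potassium (Slc12), phosphate (Slc20 and Slc34), and sulfate, dicarboxylates or other anions (Slc13 and Slc26). Members were taken by symbol: a gene of these families whose symbol ends in the letter a and a number, with 1 matching gene left out by the rule, which gave 56 of the 56941 genes in the table. The rule uses symbols only and no measured value of a member. Fragments are pieces of small vessel freed by mechanical and enzymatic dissociation of brain tissue, and they keep attached cells beside the endothelium. There were 3 libraries of polyadenylated RNA, 1 for each of 3 mice, all of 1 group, with no other tissue, sorted cell or treatment to compare them with. The labels give no sex, exact age or batch.

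The barrier endothelium and the choroid plexus epithelium move ions between blood and brain fluid by pairing carriers with the sodium gradient that the sodium pump maintains. Sodium-proton exchangers bring acid out of the cell or organelle lumen, sodium-coupled bicarbonate carriers bring base in or out depending on the carrier and tissue, anion exchangers trade bicarbonate for chloride, and the cation-chloride cotransporters set cell chloride and volume. Sodium-calcium exchangers remove calcium, and the phosphate and sulfate carriers supply anions for metabolism, mineral balance and sulfated matrix. In the choroid plexus several of these carriers take part in the secretion of cerebrospinal fluid.

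Depth was 128428355 to 150449539 counts per library. Levels are in CPM, which are counts scaled to a common library size after TMM correction for differences in composition, and detection required at least 1 CPM in each of the 3 libraries. The labelled tissue was checked on endothelial markers, of which 8 of 8 were detected with summed levels of 18889, 20136 and 24043 CPM in replicates 1, 2 and 3. Markers of attached and neighbouring cells were detected as well, and no marker of any list had a count of 0. Pericyte (6 of 6 detected), smooth muscle (6 of 6) and microglial (6 of 6) markers summed to 3626 to 3844, 4765 to 5452 and 3854 to 5080 CPM. Fibroblast (5 of 6), neuronal (7 of 7) and oligodendrocyte (5 of 6) markers summed to 119 to 142, 94.6 to 117 and 155 to 171 CPM. Choroid plexus (8 of 8) and astrocyte (7 of 7) markers summed to 5094 to 8243 and 1050 to 1935 CPM. Erythroid markers (5 of 5) were highest in replicate 1, with sums of 1088, 134 and 62.5 CPM. Pituitary markers (1 of 6) were highest in replicate 2, with sums of 20.7, 1435 and 18.2 CPM, most of it growth hormone (Gh, 1233 CPM in replicate 2). Replicates 1 and 2 stood apart in these lists: all 5 erythroid and 4 of 6 pituitary markers passed the test of variability between mice described below, and no marker of the other 9 lists did.

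Of the 56 carriers, 36 were detected (64.3%), beside 23.2% of all genes in the table and 61.6% of the protein-coding genes of GENCODE M21. The share is therefore near that of protein-coding genes in general. Among the detected genes, 25 of the 36 carriers averaged 10 CPM or more, beside 71.9% of all detected genes. The median over all 56 members was 2.38 on the log2(CPM + 1) scale, with library medians of 2.47, 2.43 and 2.36, and that over all protein-coding genes was 3.00. Over detected members alone it was 4.83, against 4.79 over all detected genes. The members ranged from 146 CPM for Slc12a7 to no count in any library for Slc13a1, Slc34a2 and Slc34a3.

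**Figure D1:**
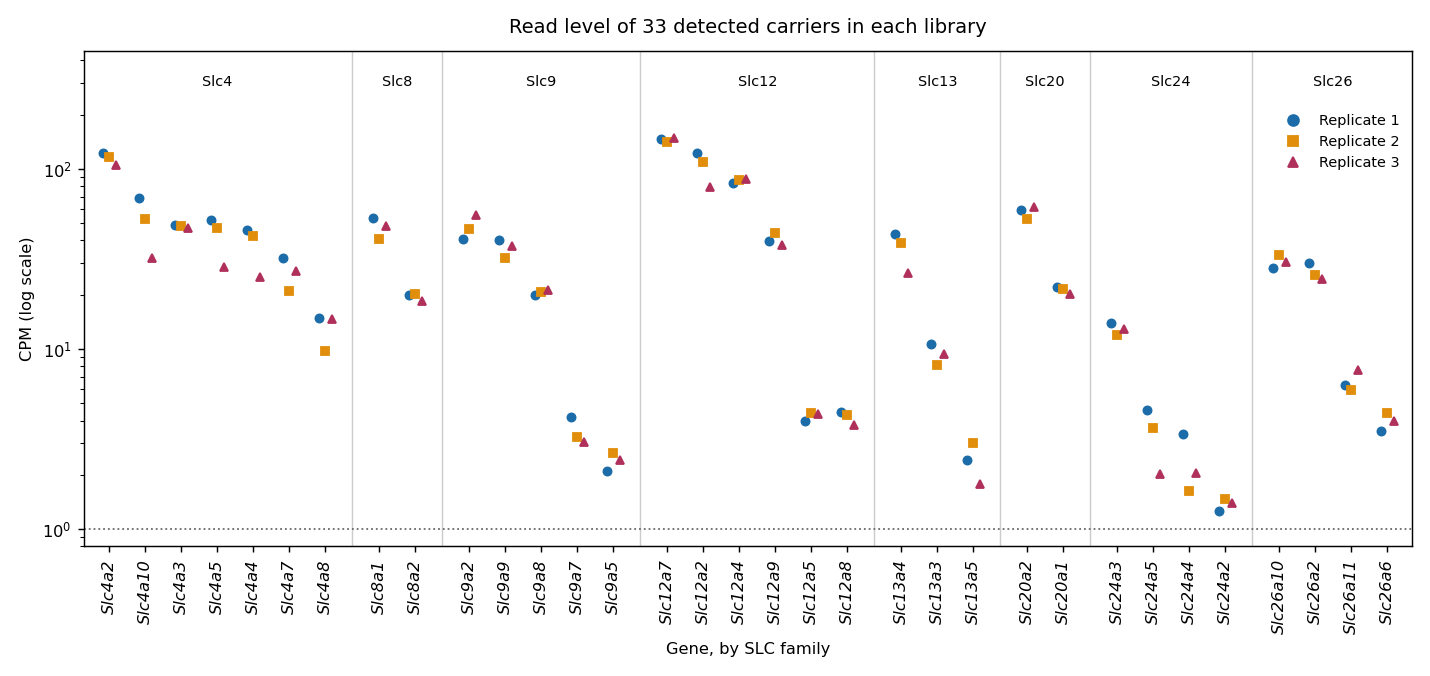
Level of 33 of the 36 detected carriers in CPM (log axis), grouped by SLC family, with 1 point for each of the 3 libraries; the dotted line marks the detection limit of 1 CPM. Slc12a7, Slc4a2 and Slc12a2 lie highest by reads, and the replicate 3 triangle lies below the other points for Slc4a10, Slc4a5, Slc4a4, Slc12a2 and Slc13a4.

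To compare genes, CPM was divided by the length of each gene's merged exons in kilobases (CPM per kb). Summed in this way, the chloride family Slc12 stood highest at 58.5, 57.6 and 54.3 CPM per kb in replicates 1, 2 and 3, which was 31.5% ± 0.853 (SD, n = 3) of the sum over the 56 carriers. The bicarbonate family Slc4 followed with 47.6, 42.1 and 33.2 CPM per kb (22.6% ± 2.66), and the sodium-proton family Slc9 with 35.4, 34.3 and 37.1 CPM per kb (19.8% ± 1.87). Slc4 and Slc9 overlapped across libraries, since Slc9 was above Slc4 in replicate 3 and below it in replicates 1 and 2. The phosphate family Slc20 (13.1 ± 0.676 CPM per kb), the anion family Slc26 (12.6 ± 0.523) and the sulfate and dicarboxylate family Slc13 (10.3 ± 2.06) lay below these. Slc26 overlapped with each of the other two, and Slc13 was below Slc20 in every library. The calcium families came last, Slc8 with 6.29 ± 0.347 and Slc24 with 4.97 ± 0.859 CPM per kb, and Slc34 had 1 read in all.

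**Figure D2:**
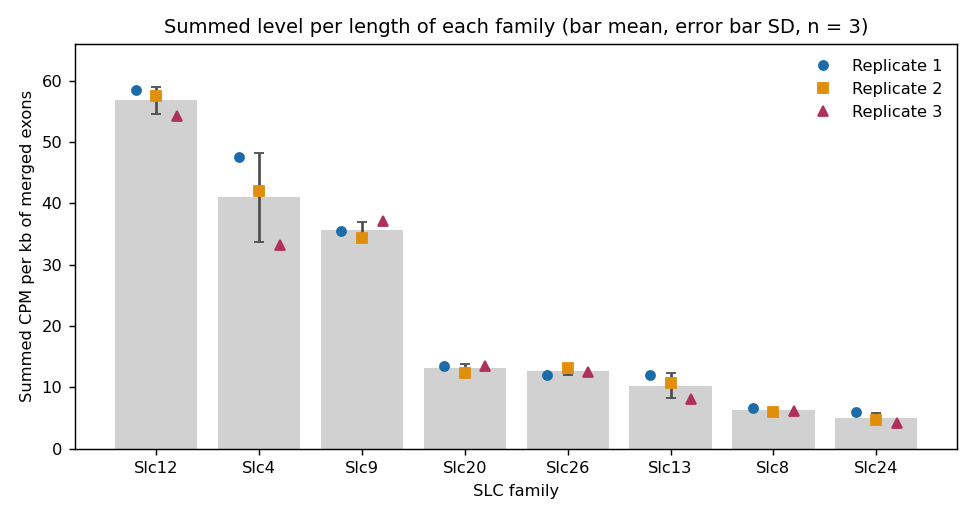
Summed CPM per kb of merged exons over all members of each family with a detected member (bars, mean; error bars, SD over 3 libraries; points, single libraries). Slc12 is the highest family in every library, and the replicate 3 point of Slc4 lies at 33.2, below the Slc9 point at 37.1.

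Within the chloride family, the potassium-chloride cotransporters carry both ions out of the cell. Slc12a7 (KCC4) had 146, 141 and 149 CPM in replicates 1, 2 and 3, a mean of 146 ± 4.004 CPM (SD, n = 3). Slc12a4 (KCC1), the widely expressed isoform, had 83.5, 86.7 and 88.4 CPM. For both genes the libraries lay close together, with the highest 1.06 times the lowest. Slc12a5 (KCC2), the isoform of neurons that keeps their chloride low, had only 3.99, 4.40 and 4.33 CPM, in fragments whose neuronal markers summed to 94.6 to 117 CPM.

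By length, Slc12a4 was the highest of all 56 carriers at 20.1 ± 0.573 CPM per kb, above Slc12a7 at 11.5 ± 0.316. That order turned with the longest coding transcript as length, which gave 22.6 CPM per kb for Slc12a4, 26.8 for the bicarbonate exchanger Slc4a2 and 28.3 for Slc12a7. Which of the pair was more abundant per molecule therefore depends on the transcript model.

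Slc12a2 (NKCC1) brings sodium, potassium and chloride into the cell and is the family's main importer in secretory epithelia and glia. It had 123, 109 and 79.6 CPM, highest in replicate 1 and lowest in replicate 3. Its range over libraries overlapped with that of Slc12a7 by length (7.29 to 11.3 against 11.2 to 11.8 CPM per kb). Within each library Slc12a7 was the higher. Slc12a9, a relative without a settled substrate, had 39.8, 44.2 and 38.0 CPM, and Slc12a8 3.77 to 4.48 CPM. The renal carriers Slc12a1 (NKCC2) and Slc12a3 (NCC), which reabsorb salt in the kidney, had 0.0344 to 0.154 and 0.123 to 0.158 CPM.

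The kinases that switch these cotransporters were detected too. The WNK kinases activate SPAK (Stk39) and OSR1 (Oxsr1), which phosphorylate NKCC1 and the potassium-chloride cotransporters. Of the list of 10 genes of this cascade, 9 were detected and none varied between the mice past the threshold of the test described below. Wnk1, the widely expressed member, had 434, 390 and 416 CPM, and Oxsr1 had 87.8, 73.6 and 86.3 CPM. Stk39 had 57.8, 52.0 and 37.6 CPM, lowest in replicate 3, with an unadjusted p of 0.0430 and an adjusted p of 0.948 in edgeR's dispersion test. Cab39, the scaffold protein of both kinases, had 161 to 196 CPM, while Wnk3 was under the limit at 0.365 to 0.665 CPM.

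In the bicarbonate family, 7 of 9 members were detected: the anion exchangers Slc4a2 and Slc4a3 and 5 sodium-coupled carriers, with Slc4a9 and Slc4a11 counted in neither class. Slc4a2 (AE2), which exchanges chloride for bicarbonate, was the highest at 122, 117 and 105 CPM, or 13.8 ± 1.07 CPM per kb. Its lowest library per length was above the highest of every other family member. Exons of Fastk on the other strand cover 13.7% of its exonic length, and the strand setting of the counting is not given. Slc4a3 (AE3), the exchanger of heart and neurons, had 48.8, 48.3 and 46.7 CPM and the narrowest range of all detected carriers, 1.05-fold.

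The 5 sodium-coupled carriers move bicarbonate together with sodium, inward or outward depending on the carrier and tissue. Slc4a10 (NBCn2, also called NCBE), which imports bicarbonate at the basolateral side of the choroid plexus and is also made in neurons, had 69.2, 52.6 and 32.0 CPM. Slc4a5 (NBCe2), an electrogenic carrier of the choroid plexus and other epithelia, had 51.7, 46.7 and 28.6 CPM. Slc4a4 (NBCe1), the electrogenic carrier of astrocytes and renal tubule, had 45.6, 42.6 and 25.0 CPM. For Slc4a4 and Slc4a5 replicate 3 lay well apart from replicates 1 and 2, while Slc4a10 fell in steps, with replicate 2 at 0.761 of replicate 1. All 3 were highest in replicate 1 and lowest in replicate 3. The other sodium-coupled members did not share that order. Slc4a7 (NBCn1), an electroneutral carrier found in vessels and many other tissues, had 32.0, 20.9 and 27.0 CPM, and Slc4a8 (NDCBE), a chloride-exchanging form of neurons, had 14.9, 9.74 and 14.7 CPM, both lowest in replicate 2. Slc4a11, known from the corneal endothelium, had 0.427 to 0.768 CPM, and Slc4a9 had 3, 1 and 0 counts.

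Carbonic anhydrases, which form the bicarbonate that these carriers move, were all detected, 4 of 4 on the list. Car4, the membrane-bound form of brain capillaries, had 448, 562 and 621 CPM. Car12 had 71.0, 61.0 and 34.8 CPM, lowest in replicate 3 (unadjusted p = 0.00498 in edgeR's dispersion test, the only one of the 4 under 0.05), and none of the 4 passed after adjustment.

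Among the sodium-proton exchangers, the isoforms of the plasma membrane and of organelles were both present. Slc9a2 (NHE2), best known from gut and kidney epithelium, had 40.6, 46.6 and 55.7 CPM, highest in replicate 3. Slc9a5, a form enriched in brain, had 2.09 to 2.63 CPM. Slc9a4, the gastric isoform, had 0.553, 0.744 and 1.08 CPM and so missed the limit in replicates 1 and 2. Slc9a3 (NHE3), the main absorptive isoform of kidney and gut, had 1, 0 and 3 counts.

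The organellar exchangers release protons from endosomes and Golgi. Slc9a9 (NHE9), of recycling endosomes, had 40.3, 32.2 and 37.4 CPM. Slc9a8 (NHE8), mainly of the Golgi, had 19.95, 20.7 and 21.2 CPM, and Slc9a7 (NHE7) 4.21, 3.25 and 3.05 CPM. By length, the libraries of Slc9a2 and Slc9a9 overlapped (6.82 ± 1.09 and 6.45 ± 0.724 CPM per kb), and Slc9a9 passed Slc9a2 when the longest transcript was used (10.6 against 9.49).

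Partner proteins of these exchangers were mostly present, 8 of the 9 distinct genes on the list being detected. Chp1, a calcium-binding subunit of sodium-proton exchangers, had 141, 134 and 149 CPM. Nherf2, a scaffold of membrane exchangers, stood at 982, 984 and 1542 CPM, highest in replicate 3, and its relative Nherf1 at 52.5, 68.6 and 63.2 CPM. Ahcyl1 (IRBIT), a regulator of NBCe1, had 197 to 230 CPM. Pdzk1 had 0, 2 and 2 counts, and no gene of the list varied past the threshold. Of 4 relatives outside the naming rule, Slc9b2 had 2.21 to 3.09 CPM, Slc9b1 0.146 to 0.296 CPM and Slc9c1 no count, and the mitochondrial exchanger Slc8b1 had 22.8, 28.5 and 28.1 CPM.

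Of the sodium-calcium exchangers, Slc8a1 (NCX1), the main form of heart and smooth muscle, had 53.5, 40.7 and 48.2 CPM. Slc8a2 (NCX2), a brain form, had 19.8, 20.2 and 18.4 CPM. By length the order turned, because Slc8a1 has long exons: Slc8a2 had 3.70 ± 0.186 and Slc8a1 2.52 ± 0.340 CPM per kb, with no overlap between libraries. Slc8a3 (NCX3), of muscle and neurons, had 0.276 to 0.400 CPM.

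Exchangers of the Slc24 family, which move potassium together with calcium, were low. Slc24a3 (NCKX3), the highest of them, had 13.9, 11.9 and 12.8 CPM. Slc24a4 (NCKX4), known from olfactory neurons and tooth enamel, had 3.39, 1.63 and 2.05 CPM, with replicate 1 apart from the others. Slc24a5 (NCKX5), the pigment cell form, had 4.59, 3.65 and 2.02 CPM. Of its exonic length, 39.5% lies under exons of Myef2 on the other strand, which had 18.8, 18.2 and 16.9 CPM, so its reads are uncertain. Slc24a2, of neurons and cones, had 1.26 to 1.46 CPM and Slc24a1, of rods, 0.200 to 0.292 CPM. The calcium pumps of the plasma membrane, which share the task of calcium export, were all detected: Atp2b4 had 156 to 186 CPM and Atp2b1 119 to 138 CPM. Atp2b3, with 75.9, 60.4 and 36.4 CPM, was lowest in replicate 3 (unadjusted p = 0.00475 in edgeR's dispersion test).

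Among the phosphate carriers, both Slc20 members and no Slc34 member were detected. Slc20a2 (PiT2), a sodium-phosphate cotransporter whose loss in people causes familial calcification of brain vessels, had 59.2, 52.8 and 61.6 CPM. Slc20a1 (PiT1) had 22.1, 21.4 and 20.1 CPM, and by length Slc20a2 was the higher in every library (9.30 ± 0.733 against 3.80 ± 0.184 CPM per kb). The epithelial carriers of kidney, gut and lung were at or near 0, with no count for Slc34a2 and Slc34a3 in any library and 0, 0 and 1 counts for Slc34a1. A count of 0 allows up to 0.0231, 0.0215 and 0.0207 CPM in the 3 libraries (3 counts of the TMM library size, counting error only).

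Other genes linked to familial brain calcification or phosphate export were all detected, 7 of 7, and none varied past the threshold. Jam2, a junction protein, had 526, 464 and 518 CPM, Pdgfb 455, 726 and 624 CPM and its receptor gene Pdgfrb 328, 390 and 361 CPM. Xpr1, the phosphate exporter, had 130, 109 and 102 CPM, and Myorg, an astrocyte glycosidase, had 5.50 to 9.61 CPM.

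Of the sulfate and anion carriers, 3 of 5 Slc13 and 4 of 11 Slc26 members were detected. Slc13a4 (NaS2), a sodium-sulfate cotransporter, had 43.2, 38.7 and 26.5 CPM, again lowest in replicate 3. Slc13a3 (NaDC3), which takes up dicarboxylates such as succinate, had 10.7, 8.10 and 9.32 CPM, and the citrate carrier Slc13a5 had 1.77 to 3.00 CPM. The renal and intestinal forms Slc13a1 (no count) and Slc13a2 (4 to 22 counts) were under the limit. In Slc26, the sulfate carrier Slc26a2 had 30.0, 25.9 and 24.5 CPM, Slc26a11 5.92 to 7.66 CPM and the anion exchanger Slc26a6 3.50 to 4.41 CPM. Slc26a10 had 28.1, 33.0 and 30.3 CPM, with 17.8% of its exonic length under exons of B4galnt1 on the other strand (5.25 to 5.54 CPM).

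The 7 undetected members of Slc26 lay between 0 and 0.887 CPM in single libraries. They include pendrin (Slc26a4), with 8, 2 and 0 counts, and prestin (Slc26a5), with 0, 5 and 0 counts, both known from the inner ear. The list of sulfate activation and use holds 5 genes, and 5 were detected. The activating enzymes Papss1 and Papss2 had 85.3, 88.6 and 94.2 CPM and 8.51 to 10.5 CPM, and the carriers of activated sulfate into the Golgi, Slc35b2 and Slc35b3, had 53.3 to 61.7 and 11.98 to 12.3 CPM. Sult1a1, a cytosolic sulfotransferase, had 80.3, 36.7 and 123 CPM (unadjusted p = 0.000431 in edgeR's dispersion test), and no gene of the list passed after adjustment.

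Variability between the 3 libraries was tested in edgeR, as whether a gene varied more than other genes of similar level. With 1 library per mouse, the mouse and its preparation cannot be told apart. A quasi-likelihood fit with 1 common mean per gene, over all 18087 genes with enough counts, set the dispersion of each gene against the trend, with Benjamini-Hochberg adjustment. Of the 43 carriers that entered, 0 passed an adjusted p of 0.05, beside 0.0829% of all genes tested. DESeq2 marked 0 of 53 members as dispersion outliers, beside 0.449% of all genes. At an unadjusted p under 0.05 edgeR listed 6 of 43 members (14.0%), beside 5.18% of all genes. From the lowest p upward these were Slc4a10, Slc4a4, Slc4a5, Slc13a4, Slc12a2 and Slc24a5. Slc4a10 had the lowest adjusted p of the members, 0.554 in edgeR. Each of the 6 was highest in replicate 1 and lowest in replicate 3.

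Single libraries moved this result. Without replicate 2, edgeR called 1 of 44 members, Slc4a10 (adjusted p = 0.00626), beside 0.436% of all genes (80 genes, against 15 with all libraries). Without replicate 1 or 3 it called 0 members, with lowest adjusted p-values of 0.489 and 0.822, beside 0.038% and 0.179% of all genes. Without replicate 3 the members at an unadjusted p under 0.05 were 3 (6.98%, beside 5.28% of all genes), namely Slc4a7, Slc4a8 and Slc24a4, and none of the 6 above. In a test with no filter on low counts, Slc4a10 was also called (edgeR, adjusted p = 0.0423), 1 of 53 members beside 0.567% of all genes.

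By size, 3 of 36 detected carriers had a highest library more than 2-fold the lowest, beside 2.41% of all detected genes. They were Slc24a5 (2.27-fold), Slc4a10 (2.16-fold) and Slc24a4 (2.08-fold). Without replicate 1 there were 0 and without replicate 3 there was 1. Leaving out a library cannot widen the range of any gene, and these counts have no share over all genes beside them. At 1.5-fold the count was 10 of 36 (27.8%), beside 12.2% of all detected genes, and among those of 10 CPM or more it was 7 of 25 (28.0%), beside 7.63%. The count at 1.5-fold was 6 without replicate 1 (16.7%, beside 6.18% of all detected genes), 7 without replicate 2 (19.4%, beside 7.0%) and 3 without replicate 3 (8.33%, beside 5.24%).

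The range was then compared by kind of carrier. All 5 detected sodium-coupled bicarbonate carriers passed 1.5-fold (1.53-fold to 2.16-fold), while the anion exchangers Slc4a3 and Slc4a2 did not (1.05-fold and 1.17-fold), nor the potassium-chloride cotransporters Slc12a4, Slc12a5 and Slc12a7 (1.06-fold to 1.10-fold). No member of Slc8, Slc9, Slc20 or Slc26 that was detected passed it. Without replicates 1, 2 and 3 in turn, 4, 3 and 2 of the 5 sodium-coupled members and 0 of these 3 potassium-chloride members passed. The subgroups were compared after their values were seen, and the difference between them was not tested.

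**Figure D3:**
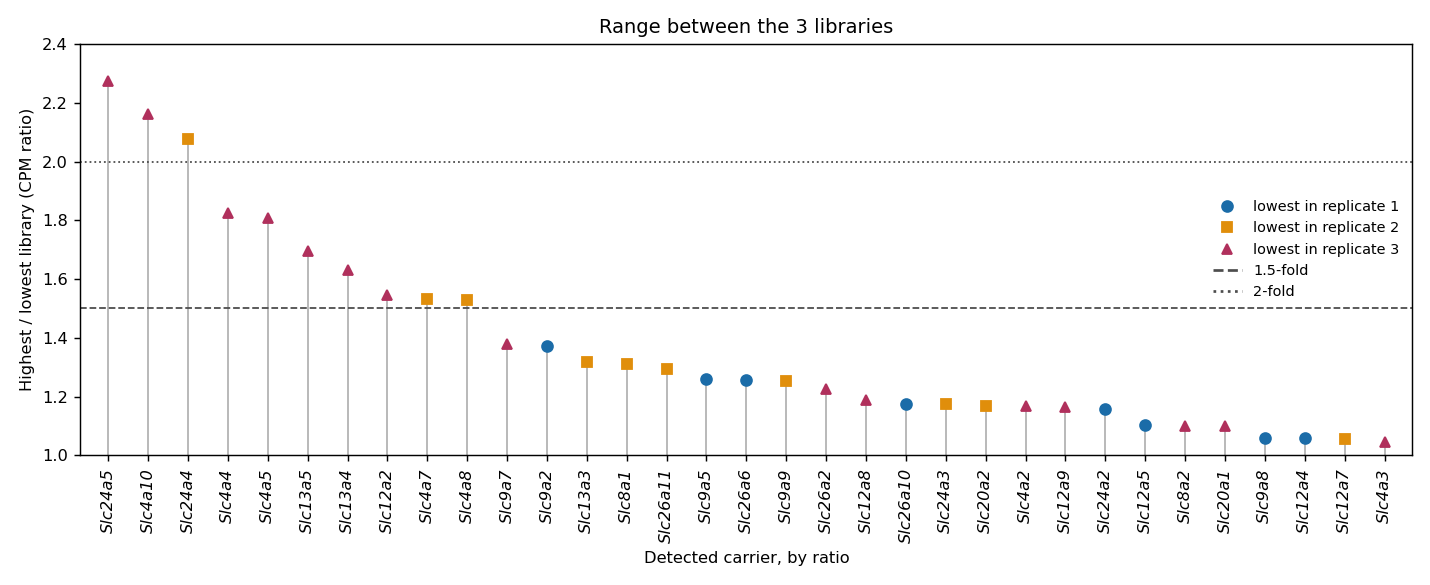
Ratio of the highest to the lowest library in CPM for 33 of the 36 detected carriers, sorted, with the symbol and colour showing which replicate was lowest. The dashed and dotted lines mark 1.5-fold and 2-fold: 10 carriers lie above the first, 7 of them lowest in replicate 3, and 3 above the second.

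Being highest in replicate 1 and lowest in replicate 3 was common among the carriers, 14 of 36 (38.9%), beside 18.2% of all detected genes. Of the 10 past 1.5-fold, 6 had that order, beside 33.1% of all genes past 1.5-fold. With DESeq2 size factors 14 members had that order, and 15 had it with plain library totals, both without a share over all genes. Markers of some other cells showed that order or were lowest in replicate 3 as well. Of the 8 choroid plexus markers, 7 were highest in replicate 1 and 8 lowest in replicate 3, for example Kl with 260, 196 and 127 CPM and Kcnj13 with 24.1, 21.4 and 13.2 CPM. Of the exonic length of Kcnj13, 49.1% lies under exons of another gene on the other strand, so its reads are uncertain. The sum of the choroid plexus markers, set by Ttr, was 6948, 8243 and 5094 CPM. Of the 7 astrocyte markers, 6 were lowest in replicate 3, with sums of 1727, 1935 and 1050 CPM. Only Aqp4 was also highest in replicate 1 (29.8, 26.7 and 15.5 CPM), and the other astrocyte markers were highest in replicate 2. All 5 erythroid markers were highest in replicate 1 and lowest in replicate 3. Among detected markers, 3 of 7 neuronal, 2 of 6 pericyte, 1 of 6 smooth muscle and 1 of 5 fibroblast markers had that order. It was shown by 0 of 8 endothelial, 0 of 6 microglial and 0 of 5 oligodendrocyte markers.

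Slc4a10 in replicate 3 stood at 0.463 of its level in replicate 1, Slc4a4 at 0.548, Slc4a5 at 0.553, Slc13a4 at 0.613 and Slc12a2 at 0.646. Slc24a5, whose reads are uncertain, stood at 0.440. The choroid plexus markers other than Ttr stood between 0.486 (Kl) and 0.635 (Folr1), a range that takes in Slc4a4, Slc4a5 and Slc13a4, and Ttr, which makes up most of their sum, stood at 0.752. Of the astrocyte markers, Slc1a2 (0.518) and Aqp4 (0.522) stood below Slc4a4, and the others stood between 0.763 (Aldh1l1) and 1.03 (Gja1), above Slc12a2. No astrocyte marker thus lay between Slc4a4 and Slc12a2. The endothelial markers stood between 0.968 (Tek) and 1.47 (Ly6c1). No choroid plexus or astrocyte marker was at 0 in any library, and their part in the levels of the carriers was not tested. In such bulk libraries, fewer cells of a type and less RNA per cell cannot be told apart.

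**Figure D4:**
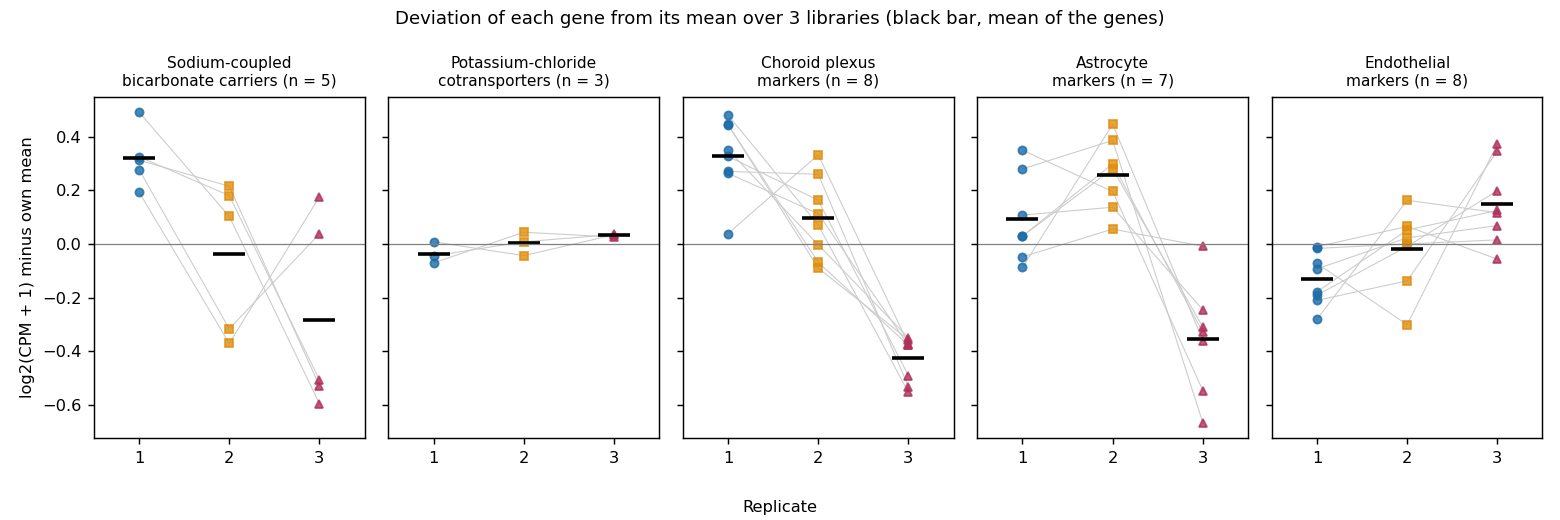
Deviation of each gene from its own mean over the 3 libraries on the log2(CPM + 1) scale, for 5 sodium-coupled bicarbonate carriers, 3 potassium-chloride cotransporters and the markers of 3 cell types; thin lines join the points of 1 gene and black bars give the mean over genes. Choroid plexus and astrocyte markers average -0.43 and -0.35 in replicate 3 and endothelial markers 0.15, while the potassium-chloride cotransporters stay near 0.

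The start regions of carriers with a narrow and with a wide range between mice were set side by side, for a sequence feature that the naming rule did not use. Promoter windows reach from 250 bases before to 50 bases after a RefSeq start site (GRCm38.p6), and 43 of the 56 members had 1 or more, 55 windows in all. The 5 windows shown belong to the choroid plexus carriers Slc4a10 and Slc4a5, the sulfate carrier Slc13a4, and the narrow-ranged cotransporters Slc12a4 and Slc12a7. They were chosen after the values were seen, and each is the first listed start of its gene. Each is printed 5′ to 3′ along the gene in lower case, with every CpG pair in capitals. CpG pairs are the sites of DNA methylation and are dense at the starts of widely expressed genes.
Slc4a10, chr2:62046265-62046564, plus strand: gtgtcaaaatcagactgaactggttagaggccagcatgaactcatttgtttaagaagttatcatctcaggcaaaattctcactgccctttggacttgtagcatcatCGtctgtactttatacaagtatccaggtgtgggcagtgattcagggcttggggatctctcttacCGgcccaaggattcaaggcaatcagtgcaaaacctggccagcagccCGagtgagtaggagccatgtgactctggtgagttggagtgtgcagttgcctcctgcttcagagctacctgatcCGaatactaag
Slc4a5, chr6:83237125-83237424, plus strand: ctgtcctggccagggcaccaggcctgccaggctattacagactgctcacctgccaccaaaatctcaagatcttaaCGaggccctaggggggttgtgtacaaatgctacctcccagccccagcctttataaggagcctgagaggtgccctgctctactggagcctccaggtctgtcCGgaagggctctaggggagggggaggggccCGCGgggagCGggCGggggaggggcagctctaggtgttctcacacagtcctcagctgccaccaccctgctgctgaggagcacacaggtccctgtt
Slc13a4, chr6:35308077-35308376, minus strand: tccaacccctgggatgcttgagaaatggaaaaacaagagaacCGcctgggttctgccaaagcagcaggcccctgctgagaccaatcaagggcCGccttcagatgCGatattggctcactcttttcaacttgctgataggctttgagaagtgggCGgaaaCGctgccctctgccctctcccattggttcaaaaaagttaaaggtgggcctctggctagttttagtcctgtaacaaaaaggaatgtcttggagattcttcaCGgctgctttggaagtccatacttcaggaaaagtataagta
Slc12a4, chr8:105966066-105966365, minus strand: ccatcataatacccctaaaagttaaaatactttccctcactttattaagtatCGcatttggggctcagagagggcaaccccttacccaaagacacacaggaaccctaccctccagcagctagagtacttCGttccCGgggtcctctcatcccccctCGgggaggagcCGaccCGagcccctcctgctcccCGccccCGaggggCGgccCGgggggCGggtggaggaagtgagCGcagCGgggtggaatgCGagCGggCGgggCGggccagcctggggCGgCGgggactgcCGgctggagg
Slc12a7, chr13:73763410-73763709, plus strand: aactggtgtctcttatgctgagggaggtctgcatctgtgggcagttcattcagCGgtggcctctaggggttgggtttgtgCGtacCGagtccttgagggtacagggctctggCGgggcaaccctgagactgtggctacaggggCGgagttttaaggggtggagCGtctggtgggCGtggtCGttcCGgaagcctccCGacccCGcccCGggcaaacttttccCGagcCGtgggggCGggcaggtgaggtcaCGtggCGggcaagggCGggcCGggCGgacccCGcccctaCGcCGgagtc

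Slc4a10, Slc4a5 and Slc13a4 hold 4, 6 and 6 CpG pairs in these 300 bases, and Slc12a4 and Slc12a7 hold 20 and 23. The median over all 32851 windows of the table was 7, and that over the windows of detected genes was 20. Of the 6 carriers at 10 CPM or more with a window and a range above 1.5-fold, 5 had a window with 6 or fewer CpG pairs. The exception was Slc4a8 with 21, and Slc4a4 had a second start with 50 beside its start with 3. Of the 12 such carriers within 1.5-fold, 3 had a window of that kind: Slc9a9 and Slc26a10 with 6 and 4, and Slc20a1 with 6 at 1 of its 2 starts. Over all genes of 10 CPM or more with a window, 31.2% of those past 1.5-fold and 13.4% of those within it had such a window. These counts are a description with no test, and counts per gene do not tell which start was used.

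**Figure D5:**
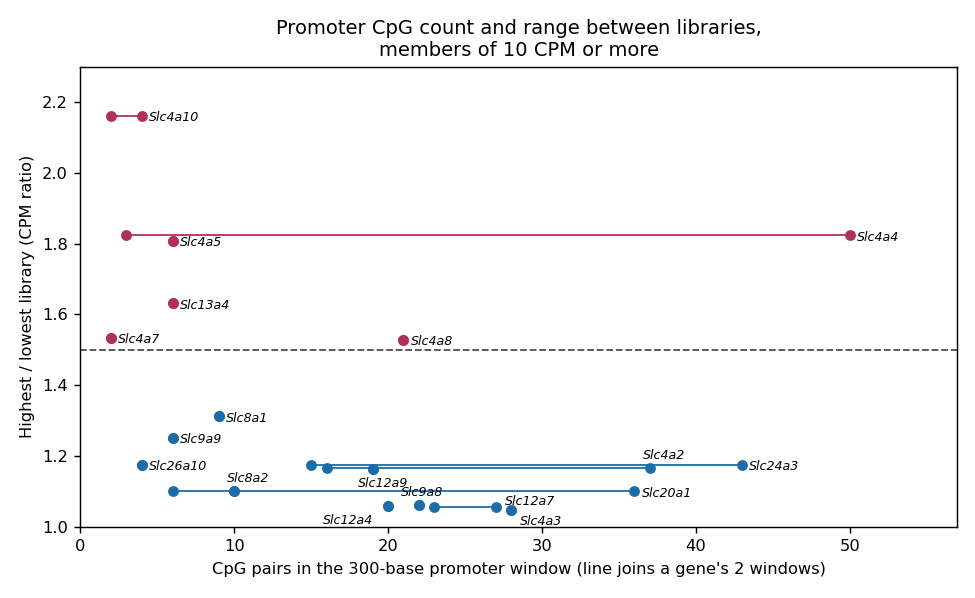
CpG pairs in the promoter windows of the 18 carriers at 10 CPM or more that have one (x axis) against the ratio of their highest to lowest library in CPM (y axis); a line joins the 2 windows of a gene. Above the dashed line at 1.5-fold, 5 of 6 carriers have a window with 6 or fewer CpG pairs, and below it 3 of 12.

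The windows were also counted by detection. The 39 windows of detected members had a median of 16 CpG pairs and the 16 windows of undetected members a median of 5.5, beside 20 and 4 over all detected and undetected genes of the table. The GC box GGGCGG, counted on both strands, occurred in 56.4% of the windows of detected members, in 25% of those of undetected members and in 35.7% of all windows, beside 61.9% and 22.2% for all detected and undetected genes. The TATA box TATAAA, counted likewise, occurred in 15.4%, 43.8% and 13.6%, beside 7.16% and 16.8%. From undetected to detected, the CpG, GC box and TATA box values thus ran in the same direction for the members as for all genes. The TATA box share of undetected members rests on 7 of 16 windows. A match is a description of the letters and not of a bound site.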

How the data were processed

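The authors deposited raw counts, 1 whole number per gene symbol and library. The submitters' processing notes name the build GRCm39, Subread 1.4.6-p5 and featureCounts. Per the labels' protocols, stranded messenger RNA libraries were made from 400 ng of total RNA with poly(A) selection and read as pairs of 150 bp. Aligner, annotation release, strand setting and the handling of multi-mapping reads: not given in the sources used here. Replicate numbers came from the sample titles, and the series' design text speaks of 3 mice.

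CPM were computed with TMM library sizes in edgeR 4.0.16 (R 4.3.3), and tables were handled in Python 3.11.15 with pandas 2.3.3. Variability was tested with edgeR's quasi-likelihood fit over all genes kept by filterByExpr. In a first run on simulated data, this test found few of the genes given a 2-fold change in 1 library. The widest range of a tested member was 2.27-fold, so the lack of calls says little about differences of that size. DESeq2 1.42.0 gave size factors and dispersion outliers as alternatives. Lengths and exon overlap came from GENCODE M21, matched by symbol for 56 of 56 members. That annotation and the RefSeq promoter windows are on GRCm38, another build than the counts, so genes get no coordinates and only the windows do. Members with a mean of 10 CPM or more or past the 2-fold range get their value in every library, the others at least their range or counts, and genes outside the members come only from the lists or overlap with a member. The members, 7 pathway lists and 11 marker lists were chosen with earlier results of these data known. The values of 3 detected members are not reported here, though counts and sums over members include them. Of the 12 listed partner symbols, 3 are older names or not in the table. Levels of different genes are compared per kb, and orders, ranges and medians given in CPM describe reads, which depend on gene length. Sequencing depth limits the lowest members to a few counts. Alternatives were leaving out each replicate, other scaling, filters, detection limits and pseudocounts.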

Additional observations from a re-analysis of the deposited data

How the results depend on the processing

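No paired analysis was possible because all 3 libraries belong to 1 group. The number of detected members was 36 without each replicate and with DESeq2 size factors, 43 at a limit of 0.1 CPM and 24 at 10 CPM. Members called variable ranged from 0 to 1 when each replicate was left out. They were 1 with no filter on low counts, and 0 with DESeq2 size factors and as DESeq2 dispersion outliers. With edgeR's robust prior 0 members were called, but that setting called 0 of all 18087 genes. It listed 6 members (14.0%) at an unadjusted p under 0.05, beside 4.34% of all genes. The median level was 2.11 with a pseudocount of 0.1 and 4.83 over detected members only, both by construction. It ranged from 2.36 to 2.40 when each replicate was left out. Members past 2-fold ranged from 0 to 2 when each replicate was left out. They were 7 over all members with a count in every library (48 of 56), 10 at 1.5-fold and, in an alternative chosen after seeing the data, 1 without members under 10 CPM. Apart from the count at 1.5-fold, these counts and those at other detection limits have no share over all genes beside them. The order of members by CPM and by CPM per kb differed for many genes, since lengths differ. With 3 libraries, a member that was not called may still differ between mice.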
